A study of Mus musculus with 6 samples.

Results

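The named C/D box small nucleolar RNA (snoRNA) genes of the mouse, whose symbols begin with Snord, were examined in hippocampal RNA-seq of WT and TG mice. The members were the rows of the deposited gene table with the biotype snoRNA and a symbol beginning with Snord, which gave 98 of 54532 genes. They carried 97 different names, because Snord80 was listed under 2 gene identifiers. In the TG mice, CRISPR/Cas9 had placed G82R and L85P together in exon 3 of Slc1a2, which encodes the glutamate transporter GLT-1, on a C57BL/6N background, and the control mice were wild type at this gene. Each group held 3 mice with 1 library per mouse (WT1, WT2 and WT3 against TG1, TG2 and TG3). Genotype was the only treatment in the labels, and the controls were littermates. The study's cohort held males and females of both genotypes, while the age of the sequenced mice, their zygosity and which sexes were sequenced were not given in the sources used here.

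C/D box snoRNAs are short RNAs of the nucleolus that pair with a target RNA and direct 2′-O-methylation of a single nucleotide there, mostly in ribosomal RNA. They are named after the C box near the 5′ end and the D box near the 3′ end, where the proteins fibrillarin, Nop56, Nop58 and Snu13 bind. Most mammalian members lie in introns of other genes, many of them genes of ribosomal proteins or non-coding host genes, and are cut out of the spliced intron. A few, such as Snord118, Snord14 and Snord22, take part in cleavage of the ribosomal RNA precursor. The Snord116 and Snord64 genes lie in the imprinted Prader-Willi region and are known as brain-expressed snoRNAs.

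The sequences of 5 of the 6 members with the highest mean reads are shown because the comparison of the groups rests on them. They were read 5′ to 3′ from GENCODE M21 transcripts (GRCm38), and capitals mark a C box (TGATGA) starting within the first 15 bases and a D box (CTGA) ending within the last 15 bases.
Snord91a: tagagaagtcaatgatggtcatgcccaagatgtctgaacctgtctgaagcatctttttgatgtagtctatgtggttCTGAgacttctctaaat
Snord104: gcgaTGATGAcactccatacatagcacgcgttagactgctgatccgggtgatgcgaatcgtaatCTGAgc
Snord42b: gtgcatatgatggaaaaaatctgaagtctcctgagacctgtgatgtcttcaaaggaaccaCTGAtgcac
Snord7: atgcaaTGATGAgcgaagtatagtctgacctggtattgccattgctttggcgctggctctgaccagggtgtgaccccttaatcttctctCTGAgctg
Snord72: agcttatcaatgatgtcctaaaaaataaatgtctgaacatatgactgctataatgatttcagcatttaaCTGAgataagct
Snord91a lies at chr11:74905424-74905516 on the plus strand, inside an intron of Tsr1, which encodes a ribosome maturation factor. Snord104 lies at chr11:106500993-106501062 on the plus strand, and no longer gene of the same strand spans it. Snord42b lies at chr11:78183056-78183124 on the minus strand, and 22 of its 69 bases overlap an exon of its host Rpl23a. Snord7 lies at chr11:83294304-83294400 on the plus strand, inside an intron of the non-coding gene AA465934. Snord72 lies at chr15:5118404-5118484 on the plus strand, inside an intron of Rpl37.

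Of these 5 sequences, Snord104 and Snord7 held both letter strings and the other 3 held only the D box. Over all 98 members, 70 held the C box, 95 held the D box and 68 (69.4%) held both. Both strings were found in 0 of 42 Snora genes, which are H/ACA box snoRNAs, in 17.4% of the 1367 other snoRNA genes, and in 0 of 1383 snRNA genes with a sequence. A missing string says only that these letters were not in the window. The members were between 64 and 238 bases long, with a median of 84 bases.

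The libraries held between 16081281 and 18751057 reads on genes, and 1 read on a gene of 80 bases was worth 0.668 to 0.790 FPKM (fragments scaled to gene length and library size). Slc1a2 mRNA was at 202, 200 and 177 FPKM in WT1 to WT3 and at 222, 207 and 217 FPKM in TG1 to TG3, with an adjusted p of 0.745 (limma). The changes are substitutions, so this level does not check the genotype. Markers of hippocampal neurons were present in all 6 libraries, with a summed level of 908 to 1140 FPKM over 8 genes. TG1 and TG2 stood apart by 10 markers of choroid plexus, a tissue beside the hippocampus. Their summed level was 57.6 to 82.1 FPKM in the WT libraries and 65.6 FPKM in TG3, against 1212 FPKM in TG1 and 3836 FPKM in TG2. All 10 were higher in the TG group by fitted difference, and none was listed at 0 in any library. TG1 also held 10206 reads on miRNA genes, against 4331 to 5189 in the other libraries, and 21155 reads on rRNA genes, against 15404 to 16942. The part of these differences in the Snord values was not tested beyond the fits without TG1 and TG2 given below.

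Few Snord genes were covered by reads in these libraries. How well the library preparation kept RNAs this short was not given in the sources used here, and its part in these counts was not tested. Over the 6 libraries, 28 of the 98 members (28.6%) had at least 1 read and 70 had 0 reads in every library. Reads were found in every library for 10 members, and 5 members averaged at least 5. By the same count, at least 1 read was found for 16 of 42 Snora genes (38.1%), 235 of 1367 other snoRNA genes (17.2%), 18 of 51 scaRNA genes (35.3%) and 30589 of all 54532 genes (56.1%). In a single library, 19, 21 and 19 members had a read in WT1 to WT3, and 16, 18 and 19 had one in TG1 to TG3. A count of 0 in a library allows up to 3 reads, or 2.00 to 2.37 FPKM on a gene of 80 bases, so absence of a read does not show absence of the RNA. Reads of the mature snoRNA and of an unspliced host transcript cannot be told apart in these rows.

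The summed level of the Snord genes overlapped between the groups. The members held 135, 141 and 177 reads in WT1 to WT3 and 134, 148 and 156 reads in TG1 to TG3, 891 reads in all. Scaled to the reads on genes, this was 8.52 ± 1.06 reads in 1000000 in WT mice against 8.47 ± 0.218 in TG mice (SD, n = 3 each), and the ranges overlapped. Snord91a alone held 44.2% of all Snord reads, and the leading 5 members together held 687 reads (77.1%). Without Snord91a, the other members summed to 4.52 to 5.71 reads in 1000000 in the WT libraries and 3.72 to 4.64 in the TG libraries, where TG1 was the lowest.

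**Figure D1:**
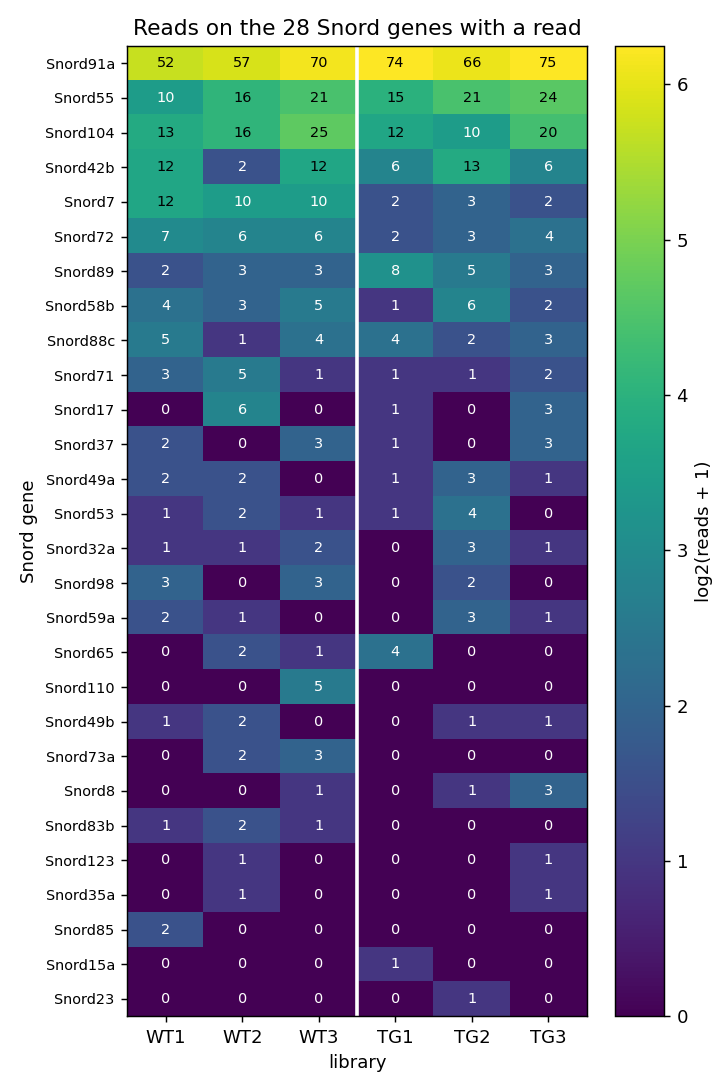
Reads on each of the 28 Snord genes with at least 1 read (rows, ordered by total reads) in the 6 libraries (columns, WT left of the white line and TG right of it), with the colour giving log2(reads + 1). Snord91a held 52 to 75 reads in each library, and below the leading 10 members most cells held 0 to 3 reads.

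A mean of at least 5 reads was reached by 18206 genes, and 5 of these were members, namely Snord91a, Snord55, Snord104, Snord42b and Snord7. They were tested with limma on log2(FPKM + 1) over all 18206 genes. At an adjusted p under 0.05, 1 of the 5 differed between the groups, and that gene, Snord7, was also the only one of all 18206 genes to do so (0.00549%). At an unadjusted p under 0.05, 1 of the 5 (Snord91a) was higher in TG mice, where 3.5% of all tested genes were, and 1 of the 5 (Snord7) was lower, where 2.95% of all tested genes were. The median difference of the 5 members was 0.18 on the log2 scale, against -0.00083 for all genes tested, and it turned to -0.30 without WT2, to -0.09 without TG2, to -0.11 over the 26 members with a mean FPKM of at least 0.1 and to -0.06 over all 28 with a read. The FPKM of the groups did not overlap for 3 of the 28 members with a read (10.7%), Snord7, Snord72 and Snord83b, against 9.7% of the 30589 genes with a read and 12.8% of the genes tested.

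Snord7, known as a guide for methylation of the U6 spliceosomal RNA, had lower values in the hippocampus of TG mice than of WT mice. It held 12, 10 and 10 reads in WT1 to WT3 and 2, 3 and 2 reads in TG1 to TG3. The corresponding levels were 6.69, 6.38 and 5.51 FPKM in WT mice and 1.30, 1.73 and 1.14 FPKM in TG mice. All TG counts of Snord7 lie at or under the 3 reads that a count of 0 allows. Every TG library was below every WT library, and the part of the choroid plexus differences in this was not tested. The means were 6.19 ± 0.615 FPKM in WT and 1.39 ± 0.301 FPKM in TG mice (SD, n = 3 each). The fitted difference was -1.59 (SE 0.120) on the log2(FPKM + 1) scale, with an adjusted p of 0.0256 (limma, Benjamini-Hochberg), and it had the smallest p and the lowest fitted difference of the 18206 genes. The exact permutation test over the libraries gave p = 0.1 (two-sided), which is the smallest p that 3 against 3 libraries allow.

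The spread between the Snord7 libraries was smaller than the counting error of so few reads. Counting error alone gave a standard error of about 0.386 on the same scale, against the 0.120 of the fit. The fit takes its error from the spread between libraries, moderated by the spread of all genes tested at a like level. From the summed reads, 32 in WT and 7 in TG mice, the TG level was 0.225 times the WT level, with an exact 95% interval of 0.0839 to 0.520 that covers counting error only. The Snord7 call was lost with limma-voom on the reads worked back (adjusted p = 0.724). It was also lost without WT1 (0.256), without WT2 (0.298), without WT3 (0.142) and without TG3 (0.0739), at unadjusted p of 7.2e-06 to 1.6e-05 (limma). Without TG1 the adjusted p was 0.0243 at an unadjusted p of 1.7e-05, where 16 genes higher in TG mice were also called. The adjusted p thus moves with the other genes as well. Without TG1 and TG2, TG3 with 2 reads was the only TG library, and the difference was -1.74. Over all alternatives the adjusted p ranged from 0.0171 to 0.724 and the difference kept its sign.

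**Figure D2:**
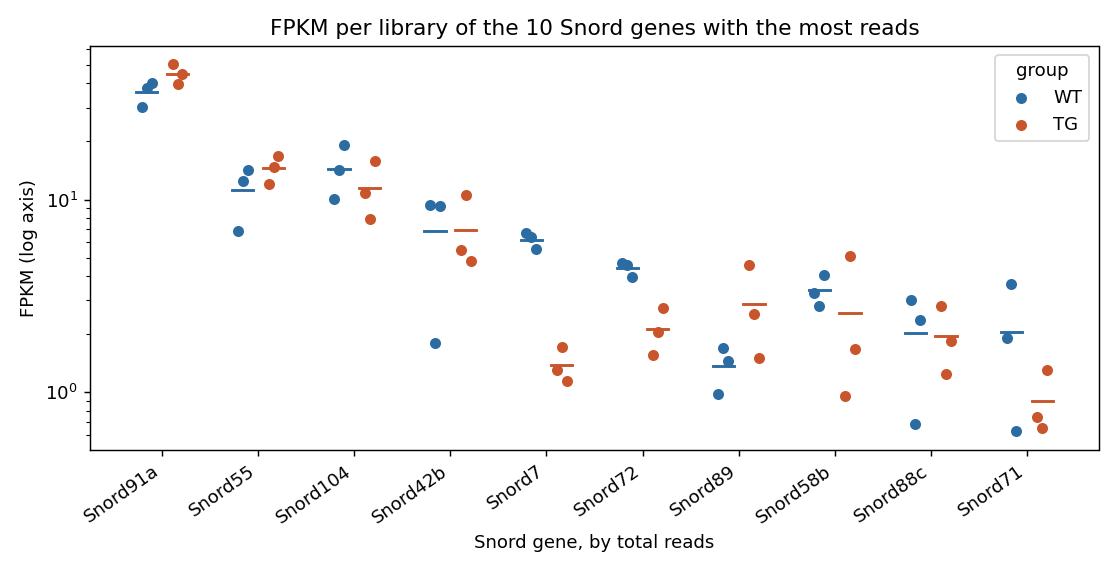
FPKM in each library (points; vertical log axis) of the 10 Snord genes with the most reads, with a bar at the group mean (WT blue, TG orange, n = 3 each). The points of the groups lie apart for Snord7 and Snord72 and overlap for the other 8 genes.

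Snord91a had the most reads of the members. It held 52, 57 and 70 reads in WT1 to WT3 and 74, 66 and 75 reads in TG1 to TG3, or 30.2, 37.9 and 40.2 FPKM in WT mice and 50.3, 39.6 and 44.7 FPKM in TG mice. TG2 was below WT3, so the groups overlapped. The means were 36.1 ± 5.22 FPKM in WT and 44.8 ± 5.35 FPKM in TG mice (SD, n = 3 each). The fitted difference was 0.31 (SE 0.125) on the log2(FPKM + 1) scale, with an adjusted p of 0.745 (limma). The summed reads gave a TG level of 1.24 times the WT level, with a counting interval of 1.01 to 1.52. The difference was 0.19 without WT1, 0.22 without TG1 and 0.31 without TG1 and TG2.

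Snord55 and Snord104, both known as guides for the large-subunit ribosomal RNA, had values in opposite directions within overlapping ranges. Snord55 held 10, 16 and 21 reads in WT mice and 15, 21 and 24 reads in TG mice, with means of 11.2 ± 3.86 and 14.5 ± 2.42 FPKM (SD, n = 3 each). Its difference was 0.39 (SE 0.240, adjusted p = 0.745, limma), and it was 0.10 without WT1 and 0.60 without TG1 and TG2. Snord104 held 13, 16 and 25 reads in WT mice and 12, 10 and 20 reads in TG mice, with means of 14.4 ± 4.52 and 11.5 ± 3.97 FPKM (SD, n = 3 each). Its difference was -0.30 (SE 0.267, adjusted p = 0.779, limma), and it turned to 0.17 without TG1 and TG2 and lay between -0.54 and -0.09 with 1 library left out. Snord42b held 12, 2 and 12 reads in WT mice and 6, 13 and 6 reads in TG mice, with means of 6.83 ± 4.36 and 6.94 ± 3.11 FPKM (SD, n = 3 each). WT2 was the lowest of its libraries, and the difference of 0.18 (SE 0.509) turned to -0.45 without WT2.

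The next 5 members held a mean under 5 reads and were not part of the test. Snord72 held 7, 6 and 6 reads in WT mice and 2, 3 and 4 reads in TG mice. Its levels were 3.96 to 4.67 FPKM in WT and 1.56 to 2.73 FPKM in TG mice, with no overlap between the groups. The summed reads, 19 against 9, gave a ratio of 0.488 with a counting interval of 0.194 to 1.13, which includes 1. Snord89 held 2, 3 and 3 reads in WT mice and 8, 5 and 3 reads in TG mice, a ratio of 2.06 with an interval of 0.832 to 5.56. Snord58b held 4, 3 and 5 reads against 1, 6 and 2, Snord88c 5, 1 and 4 against 4, 2 and 3, and Snord71 3, 5 and 1 against 1, 1 and 2. For these 3 genes the groups overlapped. Stretches of 50 bases of Snord58b (35.3% of them) occur in 1 gene elsewhere, so its reads are uncertain. When every gene with a read was fitted, Snord72 had a difference of -0.81 (adjusted p = 0.806) and Snord89 one of 0.64 (adjusted p = 0.806, limma).

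**Figure D3:**
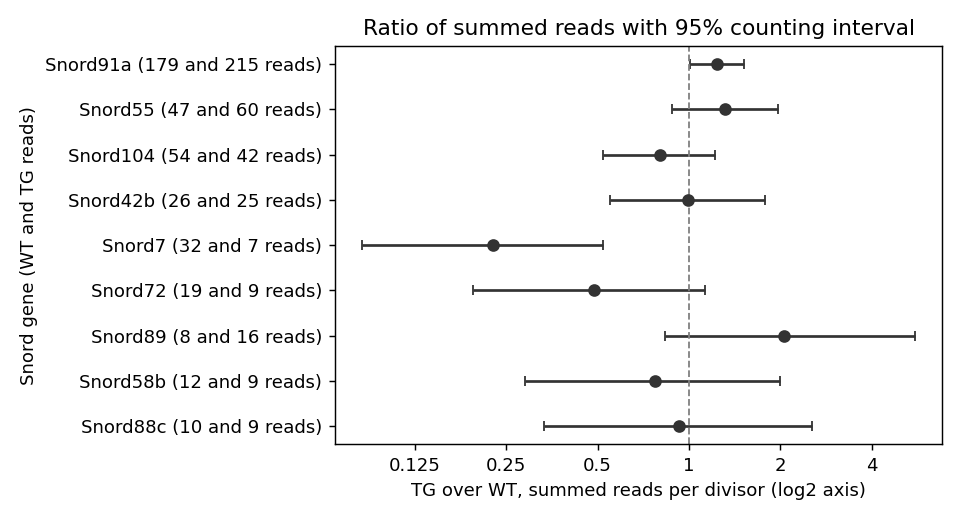
TG level over WT level from the summed reads of the 9 Snord genes with at least 15 reads (horizontal log2 axis), with exact 95% intervals for counting error and a dashed line at 1. The interval of Snord7, 0.0839 to 0.520, and that of Snord91a, 1.01 to 1.52, do not reach 1.

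The other 18 members with a read held between 1 and 10 reads over all libraries together. Snord83b was found in each WT library, with 1, 2 and 1 reads, and in no TG library. Snord73a held 2 reads in WT2 and 3 in WT3, and all 5 reads of Snord110 came from WT3. All these counts lie at or near the limit that a count of 0 allows, so no ratio of summed reads was computed. When every gene with a read was fitted, the differences were -0.84 for Snord83b, -1.08 for Snord73a and -0.77 for Snord110. Each had an adjusted p of 0.806 (limma). Snord17, the longest member with 238 bases, held 6 reads in WT2, 1 in TG1 and 3 in TG3. Snord49a, Snord49b and Snord65 share the non-coding host 2410006H16Rik and held 9, 5 and 7 reads.

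Whether a member had a read went with its position relative to exons of other genes. In GENCODE M21, 43 members overlapped an exon of another gene on either strand, and 1 of them (2.33%), Snord42b, had reads. For 38 of the 43 the exon belonged to the host itself, and for 32 of the 43 a transcript annotated as keeping the intron was among those that overlapped. Of the 55 members clear of such exons, 27 (49.1%) had a read. The same split gave 4 of 29 against 12 of 13 Snora genes, 2 of 16 against 16 of 35 scaRNA genes, and 8 of 158 against 227 of 1209 other snoRNA genes. Of the 70 members without a read, 39 lay fully inside exons of another gene. How the counting treated a read that falls on 2 genes was not given in the sources used here, and its part in these zeros was not tested.

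Neighbours in the same host gene could differ in whether they had a read. In Nop56, Snord110 lay between exons with 5 reads and Snord57 inside an exon with 0. In Rpl23a all 3 members overlapped an exon. Snord42b, with 22 bases in an exon of Rpl23a, held 51 reads, while Snord42a and Snord4a lay inside an exon of Tlcd1 and held 0. In the nucleolar protein gene Nop58, Snord11 and Snord70 were clear of exons and of shared sequence and also held 0 reads. This was so for 10 members in all, the others being Snord13, Snord34, Snord61, Snord82, Snord87, Snord90, Snord92 and Snord93.

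**Figure D4:**
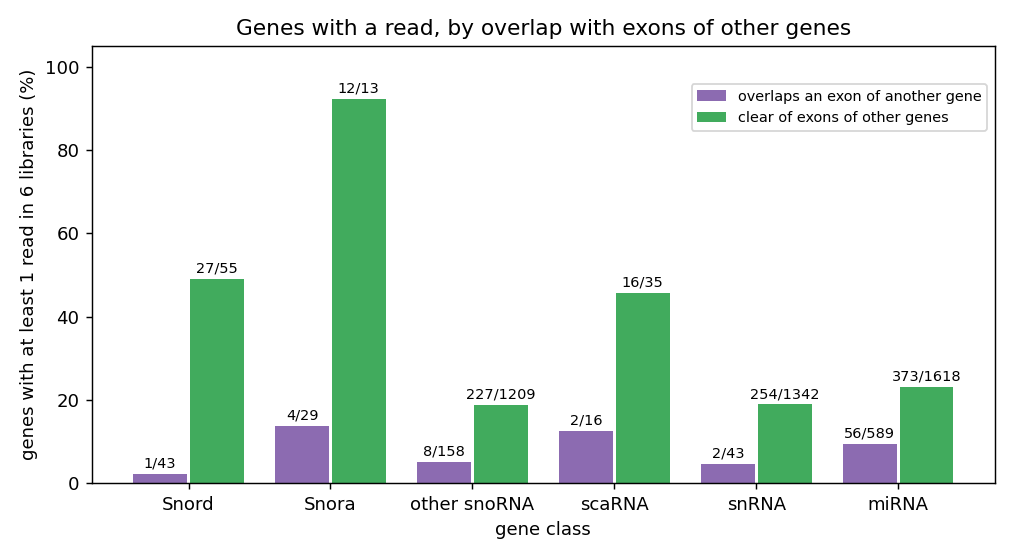
Percentage of genes with at least 1 read in the 6 libraries (vertical axis, from 0) for 6 classes of short RNA genes, split by whether the gene overlaps an annotated exon of another gene (purple) or not (green), with counts above the bars. Among Snord genes 1 of 43 overlapping and 27 of 55 clear genes had a read.

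The named Snord rows of ribosomal RNA cleavage and of the imprinted region were at 0 in all 6 libraries. Genes of these families listed under other symbols were not examined. For cleavage, the named rows were Snord118, Snord22 and the 4 Snord14 copies (Snord14a, Snord14c, Snord14d and Snord14e). Of these, Snord22 and the Snord14 copies lie inside exons of their hosts Snhg1, Rps13 and Hspa8. In the imprinted region, Snord64, Snord107 and the 17 Snord116l rows had no read. Snord64 and Snord107 lie fully inside exons of their host, while the Snord116l rows are clear of exons. Of the 17 Snord116l rows, 14 had 1 identical sequence and the 17 together only 4 different ones, and every row shared stretches of 50 bases with at least 54 other genes. The common sequence is shown because reads from it cannot be placed on a single gene. It was taken from Snord116l1 at chr7:59894620-59894713 on the minus strand.
Snord116l1: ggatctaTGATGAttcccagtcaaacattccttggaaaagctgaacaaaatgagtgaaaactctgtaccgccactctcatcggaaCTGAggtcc
Snhg14, the long non-coding RNA of the region, is the host of the 17 Snord116l rows. It was at 1.96, 2.91 and 1.92 FPKM in WT mice and 2.18, 2.23 and 2.29 FPKM in TG mice. The 4 rows in Gas5, a non-coding host known for its snoRNAs, also held 0 reads and lay inside its exons.

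None of the 8 tested hosts of the leading 10 members passed the test, with 0 at an unadjusted p under 0.05. Of these, 3 were higher and 5 lower in TG mice. Of the 14 tested hosts of the other members with a read, 11 were lower (median -0.08). Of the 29 tested hosts with only members without a read, 25 were lower (median -0.11). At an unadjusted p under 0.05 (limma), 0 of the 14 and 1 of the 29 were lower, where 2.95% of all tested genes were. Of all 18206 genes tested, 9152 had a lower fitted level. The counts for the 14 and the 29 hosts were not taken with libraries left out. Snord7 lies in AA465934, which was at 0.989, 1.04 and 0.901 FPKM in WT mice and 0.622, 0.941 and 1.56 FPKM in TG mice. It held 13, 12 and 12 reads in WT1 to WT3 and 7, 12 and 20 reads in TG1 to TG3. Levels this near the pseudocount of 1 FPKM shrink a difference on this scale, and no counting interval was computed for this gene. TG3 had the highest level of this host, TG1 the lowest, and the difference was 0.020 (SE 0.157, adjusted p = 0.978, limma). Its direction turned with a pseudocount of 0.1 FPKM and without WT3 or TG3. Tsr1, the host of Snord91a, was at 10.5 ± 0.463 and 10.2 ± 0.977 FPKM (WT and TG, SD, n = 3 each) with a difference of -0.04. Rpl37, the host of Snord72, was at 81.0 ± 9.91 and 73.8 ± 19.9 FPKM with a difference of -0.16, which turned to 0.18 without TG1 and TG2. Rpl23a, the host of Snord42b, had a difference of -0.44 (adjusted p = 0.745, limma), which was -0.27 without WT3, -0.19 without TG1 and -0.10 without TG1 and TG2. In bulk tissue, fewer cells of a type and less RNA per cell cannot be told apart in any of these differences.

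None of the 4 core proteins of the C/D snoRNP passed the test. Fbl (fibrillarin, the methyltransferase) was at 4.61, 4.85 and 6.14 FPKM in WT mice and 4.20, 5.39 and 5.14 FPKM in TG mice. Nop56 was at 14.8 ± 1.01 and 14.0 ± 0.628 FPKM, Nop58 at 4.25 ± 0.123 and 4.32 ± 0.103 FPKM, and Snu13, which binds the box fold first, at 31.2 ± 4.95 and 27.2 ± 2.73 FPKM (WT and TG, SD, n = 3 each). WT3 was the highest library for Fbl, Nop56 and Snu13. Of the 4 genes, 1 was higher and 3 lower in TG mice, with a median difference of -0.07, and 0 passed an unadjusted p under 0.05 (limma, smallest adjusted p = 0.746). The sign for Fbl turned without WT3 and without TG1, which left 2 higher and 2 lower, with medians of -0.0063 and -0.02, and without WT1 the median was -0.12.

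Of the 8 factors that assemble the particle, all 8 had a negative fitted difference (median -0.09, range -0.18 to -0.03), where 9152 of the 18206 genes tested had one. None of the 8 passed an unadjusted p under 0.05, and the smallest p was that of Rpap3 (adjusted p = 0.745, limma), a cochaperone of the assembly complex, at 7.75 ± 0.632 FPKM in WT and 6.72 ± 0.545 FPKM in TG mice (SD, n = 3 each). Ruvbl1, an ATPase of the same complex, was at 19.9 ± 2.08 and 18.9 ± 1.62 FPKM. The median was -0.17 without WT2, with 7 of 8 negative and 1 lower at an unadjusted p under 0.05, and -0.05 without WT3, with 7 of 8 negative. Without TG1, 1 of the 8 was lower at an unadjusted p under 0.05, and without TG1 and TG2, 6 of the 8 were negative.

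Of 20 non-coding host genes of snoRNAs, 17 were tested and 16 of these had a negative difference (median -0.18). Of all 18206 genes tested, 9152 had a negative difference (median -0.00083). At an unadjusted p under 0.05, 1 of the 17 was lower, where 2.95% of all tested genes were. This was Snhg8, with 13.2, 9.58 and 12.6 FPKM in WT mice and 8.30, 8.44 and 10.8 FPKM in TG mice, a difference of -0.33 (SE 0.138, adjusted p = 0.745, limma). The count was 4 with the replicate block, 2 without TG3, 1 without WT1 or WT2 and 0 without WT3, TG1 or TG2, with limma-voom, with both wider filters, with eBayes without trend and with a trend on mean reads. Gas5 was at 15.8, 12.7 and 18.5 FPKM in WT mice and 9.50, 13.7 and 15.3 FPKM in TG mice. Snhg5 was at 4.19 to 4.79 FPKM in WT mice and at 1.86, 4.13 and 4.13 FPKM in TG mice, where TG1 was the low library. TG1 was the lowest library of the list as a whole, with a median difference from the WT mean of -0.36, against -0.12 in TG2 and -0.02 in TG3. The 4 oligodendrocyte markers had medians of -0.63 in TG1, -0.13 in TG2 and -0.01 in TG3 on the same scale, with a summed level of 499 to 640 FPKM in the WT libraries and 395, 553 and 598 FPKM in TG1 to TG3. All 4 had a negative fitted difference, 0 at an unadjusted p under 0.05, and their part in the host values was not tested. Without TG1, 11 of the 17 were negative and the median was -0.09. Without TG1 and TG2, again 11 were negative and the median was -0.04.

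**Figure D5:**
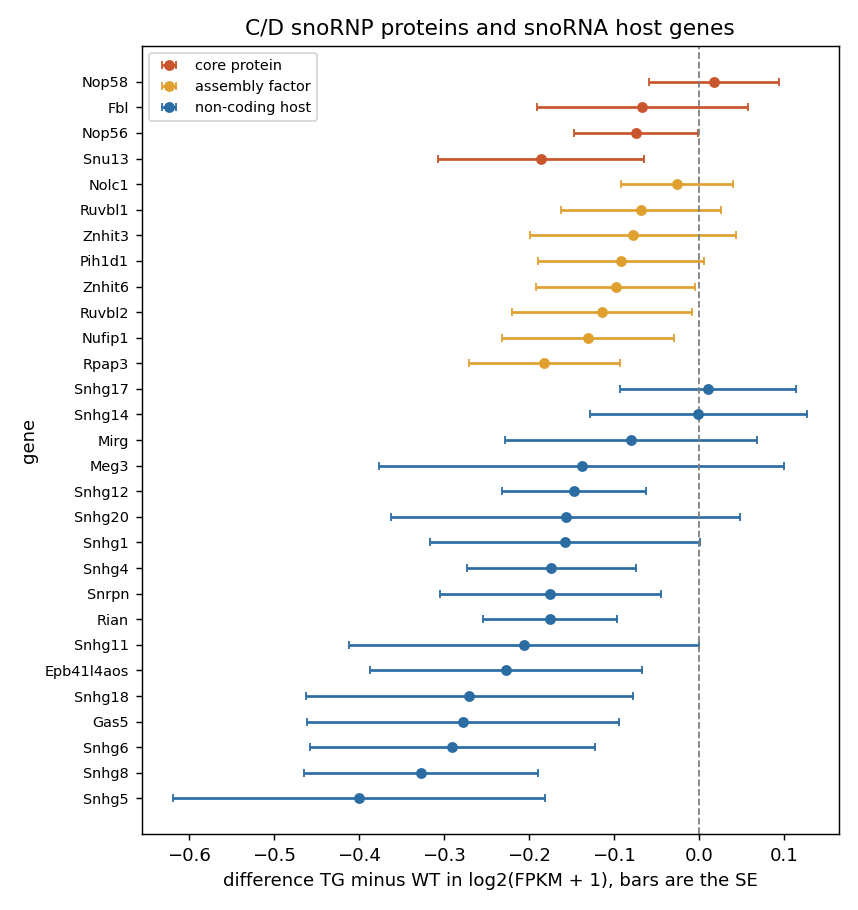
Fitted difference between TG and WT mice in log2(FPKM + 1) with its SE (horizontal axis) for the 4 core proteins, the 8 assembly factors and the 17 tested non-coding host genes. All but Nop58 and Snhg17 lie below 0, and none passed an adjusted p under 0.05.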

How the data were processed

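Hippocampal RNA of 3 WT and 3 TG mice was analysed. The authors counted reads per gene with HTSeq and deposited FPKM, computed from the count and the gene length, keeping each library in a column of its own. The build named in the submitters' processing notes is GRCm38 (mm10). The aligner, the strand setting and the handling of reads on several genes were not given in the sources used here. Kits differ between the sources (Trizol and NEBNext in the methods, RNeasy and SMARTer in the labels).

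Reads were worked back from FPKM and gene length, and 100% of the values came out whole within 0.05 reads. Because the deposited values were FPKM, the test was limma 3.58.1 (R 4.3.3) on log2(FPKM + 1), lmFit and eBayes with a trend, 3 against 3 libraries without covariate, over the 18206 genes with a mean of at least 5 reads, with Benjamini-Hochberg adjustment. The fit was tested on simulated counts drawn with the same dispersion for all genes, and no result above rests on that test. Positions, hosts, exons and sequences came from GENCODE M21, in which all 98 members had the same start and end. The host was the longest gene, other than a small RNA gene, that spans the member on its strand. Genes named were the 10 members with the highest mean reads, those called, their hosts, and all genes of the protein and host lists. Results of 1 host gene and the sequence of 1 member are not reported here. Other members were picked for naming with their values in view. The members and lists were chosen with earlier results of these data known. Alternatives covered the pseudocount, the filter, the scaling, voom, the trend, the replicate block and left-out libraries, and a trend on mean reads was added after seeing the data. Intervals and limits for counts of 0 cover counting error only, since reads that carry no molecular identifiers can be copies of 1 molecule. Whether replicates came from separate litters was not given, so p-values measure the spread between these mice. Python 3.11.15 with pandas 2.3.3, numpy 2.4.6 and matplotlib 3.10.9 was used.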

Additional observations from a re-analysis of the deposited data

How the results depend on the processing

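The numbers of the replicates gave no pairing, since same-numbered libraries had correlations of their deviations of 0.062, -0.036 and 0.062. With the replicate block, Snord7 had an adjusted p of 0.0744, so 0 members and 0 genes lower in TG mice were called. Snord members called were 0 instead of 1, and genes lower in TG mice 0 instead of 1, also with a mean FPKM of at least 0.1 (Snord7 adjusted p = 0.0581), with no filter (0.0844), with a mean of at least 10 reads, which leaves Snord7 out of the test, and with limma-voom. Leaving out 1 library gave 0 to 1 for both counts, and 0 to 16 genes higher in TG mice, where 16 came without TG1 and the count with all libraries was 0 (638 at an unadjusted p under 0.05, and 0 at an adjusted p with limma-voom). Without TG1 and TG2, 24 genes were higher and 2 lower, with TG3 as the lone TG library assumed to vary like the WT group. Members higher at an unadjusted p were 1, and 0 with no filter, limma-voom, a trend on mean reads or without TG1 and TG2, and 0 to 1 when 1 library was left out. Members lower were 1, but 4 with a mean FPKM of at least 0.1 (26 members tested) and with no filter (28 tested). The share of all genes lower in those fits was not computed, so these counts have no background beside them. With no filter the 4 were Snord7, Snord72, Snord83b and Snord73a, where Snord83b held 4 reads and Snord73a 5 over all libraries. Members lower were 0 with a mean of at least 10 reads (3 tested). The median difference of the members tested was 0.18, and -0.30 to 0.39 with 1 library left out. It was -0.11 with the FPKM filter and -0.06 with no filter. Differences that changed sign were those of Snord42b (-0.45 to 0.50 with 1 library left out, -0.45 without WT2, -0.12 without TG2, -0.20 without TG1 and TG2), Snord104 (0.17 without TG1 and TG2), Fbl (-0.13 to 0.039 with 1 library left out, 0.023 without TG1), Tsr1 (-0.097 to 0.028), AA465934 (-0.16 to 0.17, -0.0087 without WT3, and -0.00073 with a pseudocount of 0.1 FPKM) and Rpl37 (-0.34 to 0.062, and 0.18 without TG1 and TG2). The cause of these changes was not tested. At 7 reads in the TG group, depth limited the Snord7 value to the counting interval given above.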

Other observations

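Of the other short RNA classes, 2 Snora, 13 other snoRNA, 1 scaRNA, 8 snRNA and 21 miRNA genes passed the filter on reads. None was called at an adjusted p under 0.05 (limma). At an unadjusted p under 0.05, 1 of the 13 other snoRNA genes was higher and 1 lower in TG mice. By the same limit, 1 of the 2 Snora genes and 1 of the 8 snRNA genes were lower. Of the 21 miRNA genes, 1 was higher and 3 were lower. Among all tested genes, 3.5% were higher and 2.95% lower. Reads on Snora genes summed to 44.0 ± 5.20 per library in WT mice and 42.0 ± 7.21 in TG mice, and reads on snRNA genes to 264 ± 23.9 and 243 ± 45.8 (SD, n = 3 each).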
